A study of Mus musculus with 4 samples.

Results

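The genes described here are the 8 troponin genes of the mouse and Mamstr, a coactivator of the MEF2 transcription factors. The 9 genes were found by their gene names among the 35019 genes of the array and are carried by 12 of its 55681 non-control probes. They were chosen by measured values, with their lower signal on the daidzein arrays already known. Their daidzein differences are therefore given as a description, with no test. Of the 9 genes, the scanner flagged 6 as well above background on each of the 4 arrays (Tnni2, Tnnt1, Tnnt2, Tnnc1, Tnnc2 and Mamstr), 2 on some arrays (Tnnt3 and Tnni3) and 1 on none (Tnni1).

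RNA was taken from 3T3-L1 cells, an established mouse fibroblast line that can be driven to form fat cells in culture. The cells were first differentiated into adipocytes and then kept for 7 days in 1 of 4 conditions, with 1 array for each. The daidzein+PT cells received 25 µM daidzein, a soy isoflavone, together with 100 µg/ml PT, an extract of pig testis. The daidzein cells received 25 µM daidzein alone, the PT cells 100 µg/ml PT alone, and the control cells PBS. All groups share the line and its differentiation, and a single line without replicate cultures limits each group as a model. The daidzein pairs, daidzein over PBS and daidzein+PT over PT, share no array.

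Troponin is the calcium switch of striated muscle and sits on the thin filament with actin and tropomyosin. Troponin C binds calcium, troponin I holds back the actin and myosin interaction until calcium arrives, and troponin T ties the complex to tropomyosin. Tnni2 and Tnnt3 encode the fast skeletal forms, Tnni1 and Tnnt1 the slow skeletal forms, and Tnni3 and Tnnt2 the cardiac forms. Tnnc2 encodes the fast skeletal troponin C and Tnnc1 the form of slow skeletal and cardiac muscle. Mamstr carries a SAP domain and a MEF2-activating motif and is known for its part in muscle gene expression, a programme that fat cells are not known for.

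The probes that carry the lower signals are shown first, because a troponin reading on an array is only as specific as its probe. All probes are 60 bases long, and the files place them on the mm9 build. Exon, intron and UTR were not assigned, since no annotation of that build was used here. For the 2 Tnnt3 probes the capitals mark the 27 bases that both share, so they read overlapping stretches of the transcript and are not independent. The other capitals mark AATAAA, the hexamer of the common polyadenylation signal, which 10.1% of all probes hold; for Tnni2, Tnnt1 and Mamstr a stretch of 30 bases is given.
Tnni2, within chr7:149630251-149630310, plus strand: tggcctcgctccAATAAAggattcacatct
Mamstr, within chr7:52900705-52900764, plus strand: ttctagttagaggtgagaggaccagaagct
Tnnt1, within chr7:4456265-4456324, minus strand: tctgtaactcaaAATAAAgtgcccccaggc
Tnnt2, chr1:137747976-137748288, plus strand: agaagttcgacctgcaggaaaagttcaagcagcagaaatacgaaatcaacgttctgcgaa
Tnnt3, brighter probe, chr7:149698467-149698526, plus strand: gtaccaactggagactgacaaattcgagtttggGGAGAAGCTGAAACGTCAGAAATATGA
Tnnt3, other probe, chr7:149698500-149700262, plus strand: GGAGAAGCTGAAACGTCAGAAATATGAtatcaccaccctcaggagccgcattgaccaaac
The coordinates of the Tnnt2 probe span 313 bases and those of the other Tnnt3 probe 1763 bases, longer than the probes themselves, so each lies over separate genomic segments. Without gaps, no probe of one member matched a probe of another member at more than 29 of its 60 bases.

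Levels are given as scaled intensity, the processed signal of the scanner brought to a common 75th percentile on each array. A level of one probe is not set against that of another probe. The share of spots well above background lay between 49.7% and 51.4% on the 4 arrays. The dimmest probe well above background had a scaled intensity of 19.1 on daidzein+PT, 15.1 on daidzein, 16.6 on PT and 14.96 on PBS. A gene was read in a comparison where the flag held on both arrays of the pair, and the number of arrays limits the precision. As a yardstick, the daidzein difference with PT minus that without it was taken over the genes read on all arrays and brought to the scale of a single difference. Its SD was 0.33 (log2) in the dimmest of 3 equal signal classes, to which every member belongs. By the position codes in the names of the scans, PBS and daidzein lay in slide row 1 and PT and daidzein+PT in row 2. PT and that row cannot be told apart. Whether the arrays shared a slide was not checked.

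Tnni2, the inhibitory subunit of fast skeletal troponin, gave the strongest difference among the members read on every array. Its scaled intensity was 93.4 on daidzein+PT and 108.5 on daidzein, against 416 on PT and 366 on PBS. Both daidzein arrays were low and both arrays without daidzein were high. The log2 difference was -1.75 for daidzein over PBS (3.37-fold lower) and -2.15 for daidzein+PT over PT (4.45-fold lower). The scanner's own error on these differences was 0.21 and 0.22 (log2). By the smaller fall of the 2 pairs, Tnni2 stood 3rd from the bottom of the 18349 genes read on all arrays. The members were chosen with these falls known, so the place only describes Tnni2. In bulk RNA, fewer cells that express a gene and less of its RNA per cell cannot be told apart.

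Tnnt3, the tropomyosin-binding subunit of the same fast skeletal complex, was well above background only on PT and PBS. The brighter of its probes had a scaled intensity of 17.5 on daidzein+PT and 12.6 on daidzein, neither well above background, against 59.7 on PT and 49.5 on PBS. These values give a bound for the daidzein arrays, taken against the higher of the probe's own value and the dimmest probe well above background. By this probe, Tnnt3 was at least 3.28-fold lower on daidzein than on PBS and at least 3.12-fold lower on daidzein+PT than on PT. The bounds do not take in the scanner's error, which was 0.46 and 0.43 (log2) on the probe's differences in these pairs. The dimmest flagged probe is also not a strict limit, since readings of Tnni3 above it were not flagged. The other probe had 16.1 on daidzein+PT and 14.2 on daidzein, against 56.5 on PT and 33.2 on PBS. Its bounds were at least 2.198-fold lower on daidzein than on PBS and at least 2.95-fold lower on daidzein+PT than on PT. The probes ordered the conditions with and without daidzein the same way, but they differed on PT over PBS, with a log2 difference of 0.27 for the brighter probe and 0.77 for the other.

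Mamstr was printed as repeat spots, which allows its reading to be checked within each array. The probe's scaled intensity was 20.9 on daidzein+PT and 22.1 on daidzein, against 60.03 on PT and 54.6 on PBS. The log2 difference was -1.30 for daidzein over PBS (2.47-fold lower) and -1.52 for daidzein+PT over PT (2.88-fold lower). Single spots had a lowest value of 9.44, a median of 22.5 and a highest value of 30.5 on daidzein+PT (10 spots), and 16.8, 21.5 and 30.4 on daidzein (10 spots). On PT the lowest, median and highest spots were 46.7, 63.8 and 66.6 (8 spots), and on PBS 50.9, 55.2 and 57.5 (9 spots). Spots flagged as outliers were left out, and fewer spots remained on PT (8) and PBS (9) than on the daidzein arrays (10 each). Among the spots kept, no spot of a daidzein array reached the lowest spot of an array without daidzein. Repeat spots share 1 RNA sample and show only the error of the array. Of these spots, 6 of 10 on daidzein+PT and 8 of 10 on daidzein were well above background, against all on PT and on PBS. A second Mamstr probe, of another transcript, was not well above background on any array, with scaled intensities between 3.14 and 3.99. Mamstr stood 9th from the bottom of the 18349 genes by the smaller fall.

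**Figure D1:**
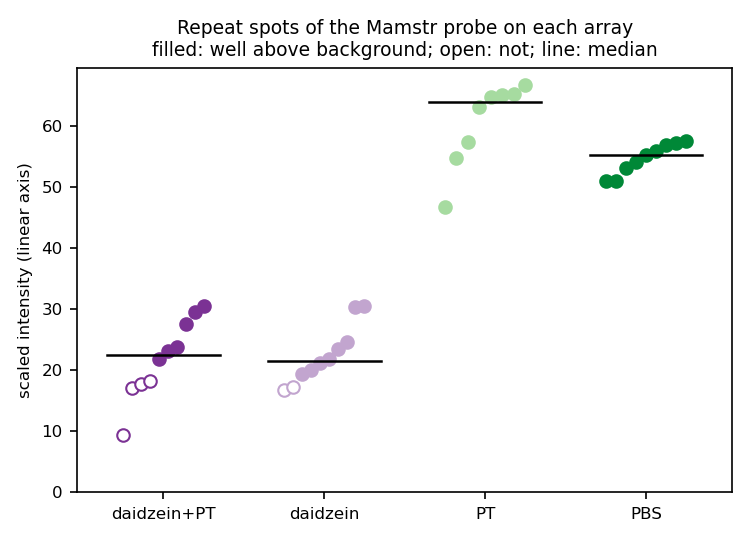
Scaled intensity (linear axis) of the repeat spots of the Mamstr probe on the daidzein+PT, daidzein, PT and PBS arrays, without outlier spots. The median is a line, and open points are spots not well above background. The highest daidzein spots, at 30.5 and 30.4, lie below the lowest spots of PT (46.7) and PBS (50.9).

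Tnnt1, the slow skeletal troponin T, was lower on both daidzein arrays by less than 2-fold. Its scaled intensity was 57.6 on daidzein+PT and 60.6 on daidzein, against 93.9 on PT and 106 on PBS. The log2 difference was -0.81 for daidzein over PBS and -0.70 for daidzein+PT over PT. A second Tnnt1 probe, which lies next to the first on the chromosome, was not well above background on any array (4.56 on daidzein+PT and 3.56 on daidzein, against 12.8 on PT and 8.63 on PBS).

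Tnnt2, the cardiac troponin T, lay at the 2-fold line. Its scaled intensity was 22.1 on daidzein+PT and 24.3 on daidzein, against 44.3 on PT and 46.4 on PBS. The log2 difference was -1.002 for daidzein+PT over PT, just past 2-fold, and -0.93 for daidzein over PBS, just short of it. The scanner's error was 0.35 and 0.30 (log2), so the side of the line on which Tnnt2 falls is not fixed by these arrays. The daidzein+PT reading stood close to the dimmest probe well above background there (19.1).

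The calcium-binding subunits were not lower by 2-fold on either daidzein array. Tnnc1, the slow skeletal and cardiac troponin C, had 35.6 on daidzein+PT and 35.5 on daidzein, against 36.5 on PT and 37.2 on PBS. Its log2 differences were -0.07 for daidzein over PBS and -0.04 for daidzein+PT over PT, well inside the spread. Tnnc2, the fast skeletal troponin C, had 48.5 on daidzein+PT and 55.0 on daidzein, against 47.3 on PT and 40.8 on PBS. Its log2 difference was 0.43 for daidzein over PBS and 0.04 for daidzein+PT over PT, so the higher reading on daidzein was not repeated in the presence of PT.

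The other inhibitory subunits were dim and not well above background on all arrays. Tnni3, the cardiac troponin I, had 21.0 on daidzein+PT and 21.7 on daidzein, against 20.8 on PT and 19.2 on PBS. Only its daidzein and PBS readings were flagged well above background, though each reading lay above the dimmest flagged probe of its array. The log2 difference between daidzein and PBS was 0.18 with a scanner error of 0.43. Tnni1, the slow skeletal troponin I, had 4.71 on daidzein+PT and 9.63 on daidzein, against 9.97 on PT and 11.8 on PBS. It was not well above background on any array, so no difference is given for it.

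**Figure D2:**
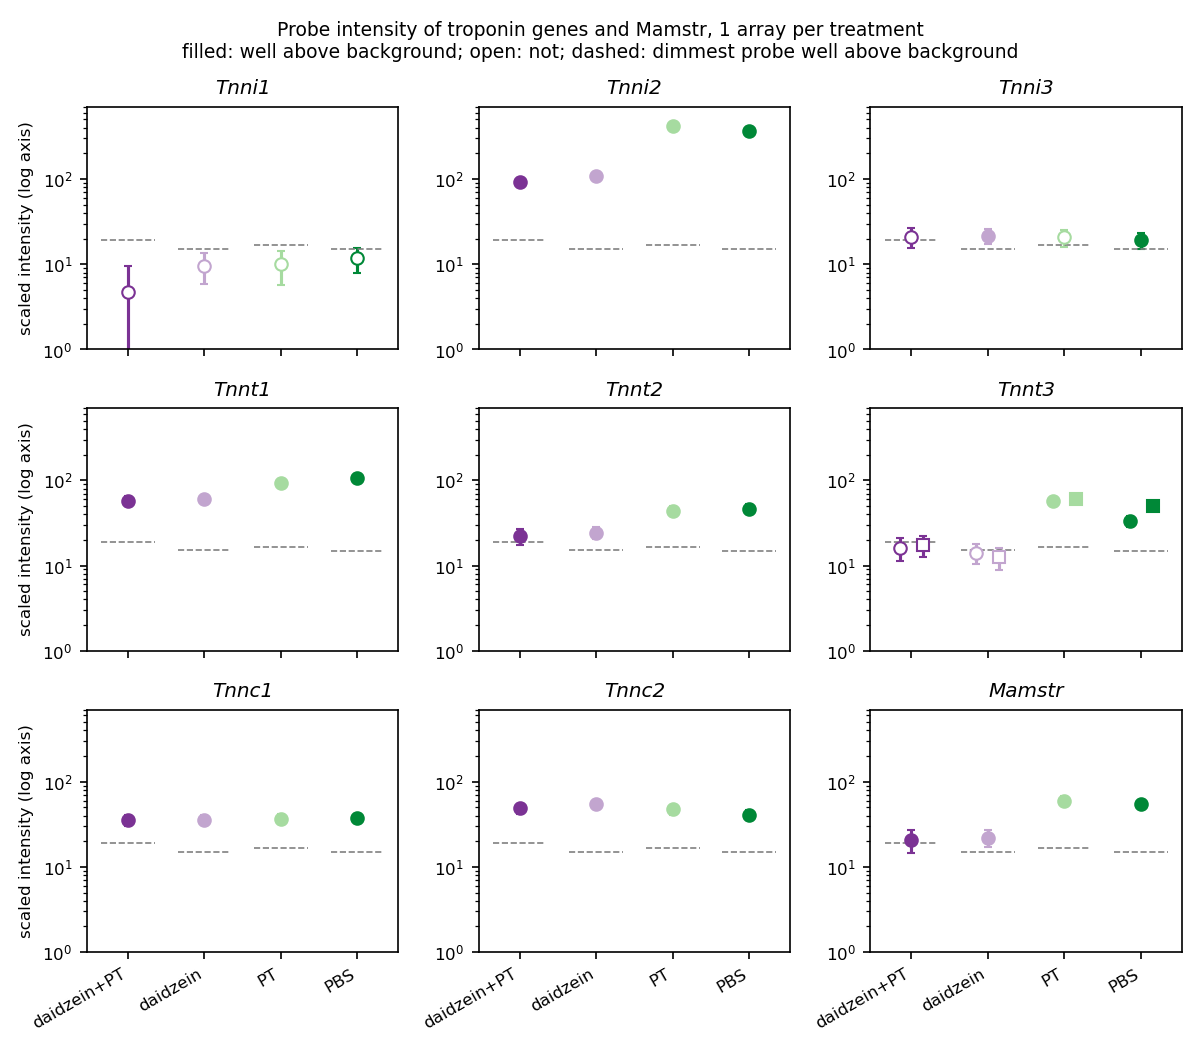
Scaled intensity (log axis) of the troponin genes and Mamstr on the daidzein+PT, daidzein, PT and PBS arrays, with the scanner's error as bars (for Mamstr the SD of its spots) and the dimmest probe well above background as a dashed line. Circles for Tnnt3 are its other probe and squares its brighter probe; Tnni2, Mamstr, Tnnt1, Tnnt2 and Tnnt3 are lower on both daidzein arrays, while Tnnc1 stays between 35.5 and 37.2.

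Counted at 2-fold, 2 of the 7 members read in daidzein over PBS were lower (Tnni2 and Mamstr) and 0 were higher, where 0.368% of all 19014 genes read were lower and 1.1% higher. The members' median log2 difference was -0.81, against -0.03 for all genes read. In daidzein+PT over PT, 3 of the 6 members read were lower (Tnni2, Tnnt2 and Mamstr) and 0 higher, where 0.86% of all 18613 genes were lower and 2.1% higher. The median was -0.85, against -0.01 for all genes. Lower in both daidzein pairs by 2-fold or more were 2 members, Tnni2 and Mamstr, and 0.163% of the 18349 genes read on all arrays. The members were chosen for these differences, so the shares of all genes stand here as a scale and nothing is read from them. Tnnt3 is in neither count, since it was not well above background on the daidzein arrays. With normexp background correction, which draws dim probes together, Tnni2 alone was past 2-fold in each daidzein pair, at -1.35 for daidzein over PBS and -1.55 for daidzein+PT over PT, while Mamstr was at -0.50 and -0.43 and Tnnt2 at -0.34 and -0.28. When all probes of a gene were averaged, which takes in the Mamstr probe below background, Mamstr was at -0.65 and -0.67 and so not past 2-fold in either pair. Tnnt1, whose second probe was also not well above background, was then past 2-fold in both pairs, at -1.04 and -1.10. Under quantile, cyclic loess and median scaling and in the deposited table, Tnnt2 was short of 2-fold in daidzein+PT over PT (-0.91 to -0.97).

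With both treatments set against PBS, daidzein+PT had 3 of 6 members lower (Tnni2 at -1.97, Mamstr at -1.39 and Tnnt2 at -1.07, log2 differences) and 0 higher. Of all 18560 genes read in that comparison, 0.555% were lower and 2.52% higher. The members' median was -0.98, against -0.03 for all genes. With normexp only Tnni2 was past 2-fold here, with Mamstr at -0.42 and Tnnt2 at -0.33, and with the mean over probes Mamstr was at -0.52. Tnnt1 had a log2 difference of -0.88, and Tnnt3 was at least 2.59-fold lower by its brighter probe. This comparison shares its PBS array with daidzein over PBS and its daidzein+PT array with daidzein+PT over PT.

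No member differed by 2-fold with PT. In PT over PBS, 0 of 7 members read were lower and 0 higher, where 0.0635% of all 18904 genes were lower and 0.873% higher. The log2 differences of the members lay between -0.18 for Tnnt1 and 0.27 for Tnnt3, with a median of 0.14, against -0.02 for all genes read. Tnni2 was at 0.19 and Mamstr at 0.14, both inside the spread of 0.33, and scaling by the median turned them to -0.06 and -0.11. In daidzein+PT over daidzein, 0 of 6 members were lower and 0 higher, where 0.107% of all 18669 genes were lower and 1.07% higher. The members' median was -0.11, with Tnni2 at -0.22, Tnnt2 at -0.14, Mamstr at -0.08 and Tnnt1 at -0.07.

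**Figure D3:**
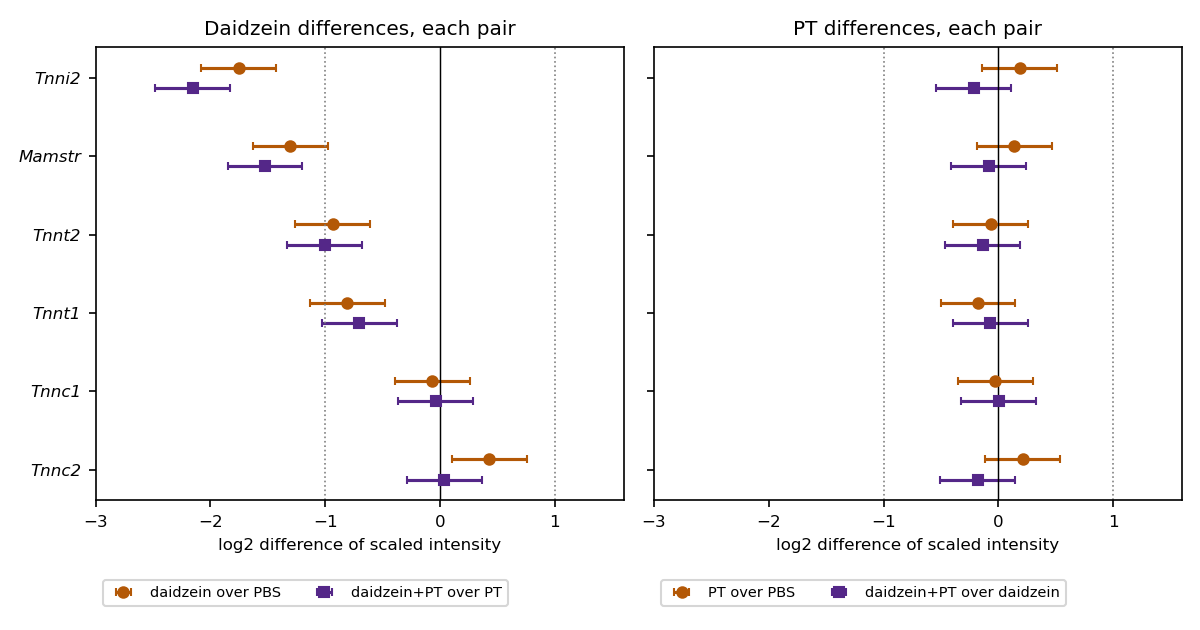
Log2 differences of scaled intensity for the 6 members read on all arrays, for each daidzein pair (left) and each PT pair (right). Bars are the spread of a difference in the dimmest signal class (0.33) and dotted lines mark 2-fold; Tnni2 lies at -1.75 and -2.15 for daidzein, and all PT differences lie between -0.22 and 0.21.

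For each member read on all arrays, the daidzein difference with PT was set against that without it. The daidzein difference with PT minus that without it was -0.40 for Tnni2, -0.39 for Tnnc2, -0.22 for Mamstr, -0.07 for Tnnt2, 0.03 for Tnnc1 and 0.11 for Tnnt1 (log2). Each was smaller in size than 0.46, the SD of that quantity over genes of the dimmest class. With 1 array per condition, departures of this size cannot be told from that scatter over genes.

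Among the genes whose pattern over the 4 arrays was most like that of Tnni2 were Smoc2, Ifi27l2a, Mmp3 and Abca8a, in order of likeness. Likeness was the distance between log2 profiles after each was centred on its own mean, among 12906 candidate genes read on all arrays. Smoc2, which encodes a secreted matricellular protein, lay at a distance of 0.38 and had log2 differences of -2.16 for daidzein over PBS and -1.86 for daidzein+PT over PT. For Mamstr they included Abca8a at 0.10, Aqp1 at 0.11, Mmp3 and Cox6a2. Aqp1, a water channel, had -1.18 and -1.51 in the same pairs. Over 4 arrays such likeness mainly says that a gene was lower with daidzein by a like amount.

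Troponin genes lie in pairs of an I and a T gene in the mouse genome, and the pairs differed here. On mm9 the probes of Tnni2 and Tnnt3 were 68.2 kb apart on chromosome 7, and both genes were lower on both daidzein arrays. The probes of Tnni3 and Tnnt1 were 15.8 kb apart on chromosome 7, where Tnnt1 had -0.81 and Tnni3 0.18 in daidzein over PBS. The probes of Tnni1 and Tnnt2 were 42.4 kb apart on chromosome 1, where Tnnt2 was at the 2-fold line and Tnni1 was not read.

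The neighbours of Tnni2 were looked up after the member values were seen, over 250 kb on each side of its probe. Lsp1, a leukocyte actin-binding protein whose probe lies between those of Tnni2 and Tnnt3, had scaled intensities of 1448 on daidzein+PT and 1420 on daidzein, against 2702 on PT and 2650 on PBS. Its log2 difference was -0.90 in both daidzein pairs. H19, the imprinted non-coding RNA 131 kb beyond Tnni2, had 96.4 on daidzein+PT and 58.8 on daidzein, against 335 on PT and 440 on PBS. Its log2 differences were -2.90 for daidzein over PBS and -1.80 for daidzein+PT over PT. Igf2, the growth factor gene of the same imprinted domain, had -0.98 for daidzein over PBS and was not well above background on daidzein+PT. Not all neighbours were low. Mrpl23, a mitochondrial ribosomal protein gene between Tnnt3 and H19, had -0.17 and -0.06, and Ctsd, the lysosomal protease cathepsin D on the other side of Tnni2, had -0.08 and 0.12. Ins2, the insulin gene beyond Igf2, had -0.01 and -0.27, and Krtap5-5, a keratin-associated protein gene, was higher at 0.73 and 0.96. Syt8, the nearest neighbour, was not well above background on any array.

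**Figure D4:**
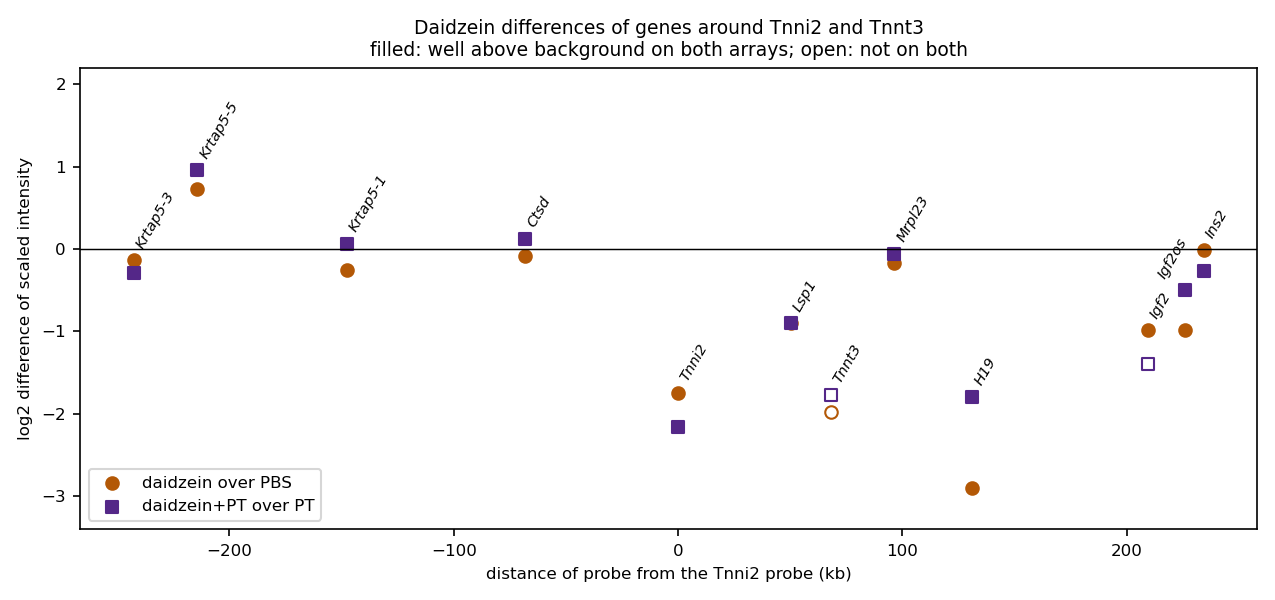
Log2 difference of scaled intensity for daidzein over PBS (circles) and daidzein+PT over PT (squares) against the distance of each gene's probe from the Tnni2 probe in kb; open points were not well above background on both arrays. Tnni2, Tnnt3, Lsp1 and H19 lie below 0, while Mrpl23 and Ctsd lie within 0.17 of it.

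The rest of the sarcomere was mostly not read, and few of the genes read differed by 2-fold with daidzein. Of 16 other thin filament genes 9 were read in daidzein over PBS, with 0 lower and 0 higher by 2-fold and a median log2 difference of -0.08. The tropomyosins Tpm2, Tpm3 and Tpm4, which troponin T binds in muscle or which serve non-muscle filaments, had -0.27, -0.25 and -0.23 in that pair, and -0.06, -0.24 and -0.14 in daidzein+PT over PT. Lmod3, an actin filament nucleator of skeletal muscle, was irregular, with 27.6 on daidzein+PT and 39.1 on daidzein, against 90.7 on PT and 22.8 on PBS. It was the 1 gene of the list past 2-fold in daidzein+PT over PT, at -1.72, and it was at 0.78 in daidzein over PBS.

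Of 25 thick filament genes, 2 were read on all arrays (Myl4 and Mylk2), 10 on some arrays and 13 on none. The atrial light chain gene Myl4 had 0.04 for daidzein over PBS and 0.35 for daidzein+PT over PT, and the skeletal light chain kinase gene Mylk2 had 0.13 and -0.23. Myl1, a fast skeletal myosin light chain, went the other way to Tnni2, with 35.4 on daidzein+PT and 27.7 on daidzein, against 4.69 on PT and 3.71 on PBS, where it was not well above background. It falls outside the rule for naming genes and was singled out after its values were seen.

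Of 20 Z-disc and titin genes 7 were read in daidzein over PBS, with 0 lower and 0 higher and a median of -0.08. In daidzein+PT over PT, 8 were read, of which Actn3 was lower and Ldb3 and Des were higher by 2-fold. Actn3, the alpha-actinin of fast fibres, had 31.3 on daidzein+PT and 30.6 on daidzein, against 63.4 on PT and 49.5 on PBS, or -1.02 and -0.70 as log2 differences for daidzein+PT over PT and daidzein over PBS. Des, the intermediate filament of muscle, was higher, with 77.6 on daidzein+PT and 46.1 on daidzein, against 31.8 on PT and 23.2 on PBS. Pdlim5 had -0.32 and Cryab -0.08 in daidzein over PBS.

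Of 19 striated calcium handling genes 8 were read in daidzein over PBS, with 0 lower and 0 higher and a median of 0.23. The calcium pump genes Atp2a1 and Atp2a2 had 0.34 and -0.14 in daidzein over PBS, and -0.76 and -0.10 in daidzein+PT over PT. Cacnb1, a calcium channel subunit, had 0.50 and 0.02 in these pairs, and Srl, a sarcoplasmic reticulum protein, 0.37 and 0.45.

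Among 23 myogenic regulators 15 were read, with 0 lower and 0 higher in either daidzein pair and a median of -0.01 in daidzein over PBS and 0.01 in daidzein+PT over PT. The MEF2 factors are the partners of Mamstr. Mef2b had 76.1 on daidzein+PT and 83.8 on daidzein, against 116 on PT and 145 on PBS, with log2 differences of -0.79 for daidzein over PBS and -0.61 for daidzein+PT over PT. Mef2d had -0.20 in both pairs, Mef2a -0.08 and 0.13, and Mef2c was not well above background on any array; Mef2a and Mef2c were named after their values were seen. Tead4, a factor that binds MCAT elements, had 0.28 and 0.30, and Vgll3, a cofactor of the TEAD factors, -0.07 and -0.53.

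Of 15 muscle metabolic isoforms 9 were read on all arrays, and their largest differences went in opposite directions. Cox6a2, the striated muscle form of a cytochrome oxidase subunit, had 197 on daidzein+PT and 164 on daidzein, against 507 on PT and 469 on PBS, with log2 differences of -1.51 for daidzein over PBS and -1.36 for daidzein+PT over PT. Eno3, the muscle enolase, had -0.92 and -0.999 in these pairs. Cox8b, a subunit found in muscle and brown fat, was higher at 2.88 and 2.98, and Cox7a1 at 0.67 and 1.78. The median of the list was -0.03 for daidzein over PBS.

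Of 12 smooth muscle contractile genes 9 were read in both daidzein pairs, with 0 lower and 0 higher and medians of -0.18 for daidzein over PBS and -0.18 for daidzein+PT over PT. Of the 9 genes read, 6 were below 0 in daidzein over PBS and 5 in daidzein+PT over PT. Myl9 had -0.44 and -0.41 in these pairs, Smtn -0.40 and -0.39, Actg2 -0.46 and -0.26, and Cald1 -0.23 and -0.33. Above 0 in both pairs were Vcl, at 0.24 and 0.30, Acta2, at 0.22 and 0.29, and Mylk, at 0.22 and 0.10. Myh11 was well above background only on the daidzein arrays, with 21.5 on daidzein+PT and 19.1 on daidzein, against 5.05 on PT and 5.28 on PBS. It is therefore in neither count. Vcl, Acta2, Mylk and Myh11 were named after their values were seen.

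**Figure D5:**
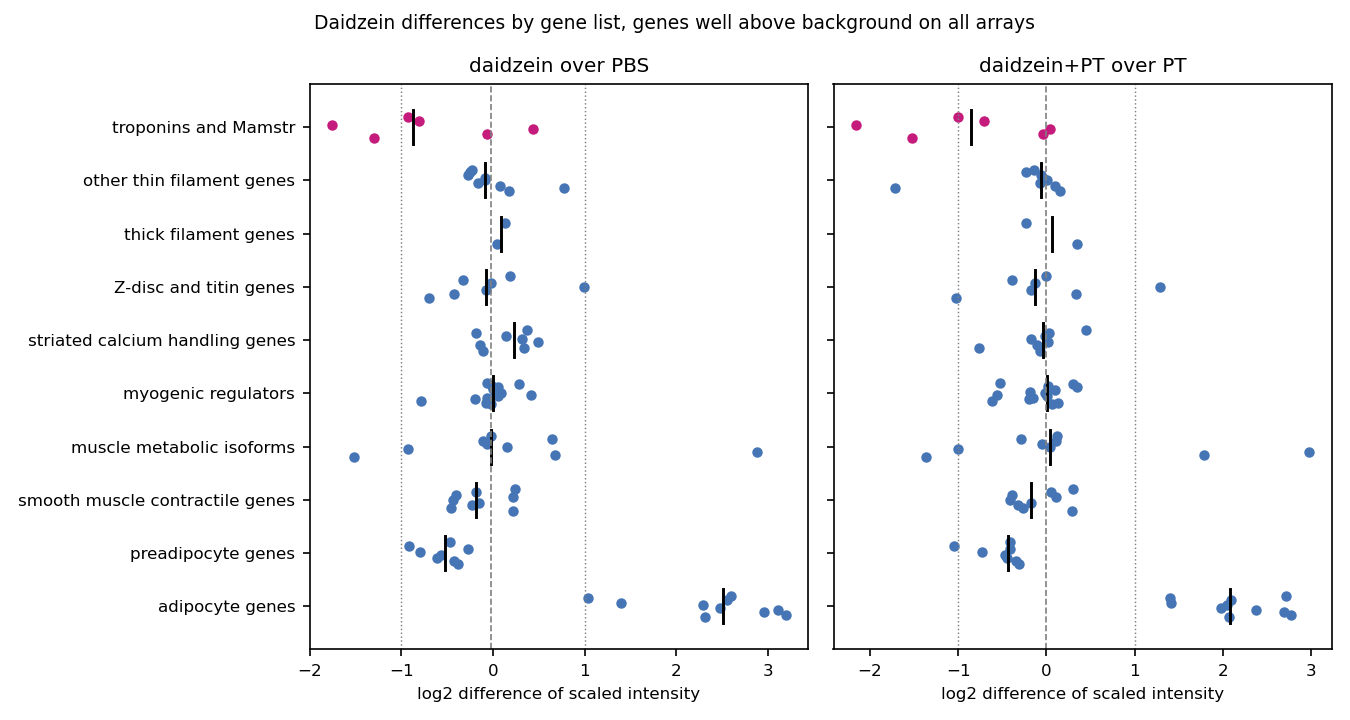
Log2 difference of scaled intensity for daidzein over PBS (left) and daidzein+PT over PT (right), 1 point for each gene well above background on all arrays, by gene list. Black lines are medians of the points, the dashed line is the median of all genes read in the pair and dotted lines mark 2-fold; Tnni2 and Mamstr are the members more than 2-fold lower in both panels.

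All 10 adipocyte genes were read on every array, as the labelled cell type asks, and so were all 8 preadipocyte genes. Their summed scaled intensity was 441450 on daidzein+PT, 270050 on daidzein, 115900 on PT and 61038 on PBS, and all 10 were at least 2-fold higher in both daidzein pairs. The 8 preadipocyte genes were all below 0 in both daidzein pairs, with medians of -0.52 for daidzein over PBS and -0.43 for daidzein+PT over PT. They summed to 162500 on daidzein+PT and 158400 on daidzein, against 208940 on PT and 213760 on PBS. Most of each sum was Dlk1, at 139200, 134700, 176700 and 180700 in the same order. In the daidzein pairs the lower signals of Tnni2 and Mamstr thus stood beside higher adipocyte and lower preadipocyte signals. In PT over PBS 7 of 10 adipocyte genes were at least 2-fold higher (median 1.101), the preadipocyte median was -0.01 and the members' median 0.14. In daidzein+PT over daidzein the adipocyte median was 0.80 and the members' median -0.11. The part of either cell state in the result was not tested.

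Markers of muscle cells were read in part. Of 10 skeletal myoblast genes 4 were well above background on any array, Mymk and Itga7 on all 4, Cdh15 on daidzein and PBS, and Chrna1 on daidzein, while Myod1, Myf5, Myog, Myf6, Pax7 and Chrng were well above background on none. The list summed to 1743 on daidzein+PT and 1127 on daidzein, against 627 on PT and 491 on PBS. Itga7, an integrin subunit, had 1677 on daidzein+PT and 1009 on daidzein, against 544 on PT and 424.5 on PBS. Mymk, the myoblast fusion protein myomaker, had 26.2 on daidzein+PT and 29.2 on daidzein, against 38.8 on PT and 21.9 on PBS. Of 7 cardiomyocyte genes, Nppa was read on all arrays and Nppb on daidzein, and the list summed to 57.6 on daidzein+PT and 70.0 on daidzein, against 67.9 on PT and 70.7 on PBS. Of 9 testis genes on the array, Prm1 and Prm2 were read on all arrays and Sycp3 on both daidzein arrays. The testis list summed to 130 on daidzein+PT and 109 on daidzein, against 106.9 on PT and 90.8 on PBS. The sums take in genes not well above background. On PBS, Prm1 had 22.35 and Prm2 22.99, and on daidzein+PT Nppa had 25.07. No difference between arrays is therefore read from the cardiomyocyte and testis sums. The 6 macrophage genes summed to 11888 on daidzein+PT and 11412 on daidzein, against 11890 on PT and 12318 on PBS. Most of each sum was Itgam, at 10660, 10110, 10690 and 11100 in the same order, and Adgre1 was well above background on no array.

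Promoter sequence was looked at for letters known from muscle genes. In the RefSeq promoter table for GRCm38.p6, 7 of the 9 members had an entry, and Tnni2 and Tnnt3 had none. Windows of 250 bases before the start and 50 after it were searched on both strands for the E-box CANNTG and the MCAT element CATTCC, and for the MEF2 and CArG elements by name. Of all 32851 promoters in the table, 66.2% held an E-box, 12.6% an MCAT element, 2.92% a MEF2 element and 1.47% a CArG element. Tnnt1 and the upstream start of Tnnt2 are shown as members that were lower with daidzein and have an entry, with their E-boxes and the MCAT element in capitals, up to the start.
Tnnt1, chr7:4515976-4516225, minus strand: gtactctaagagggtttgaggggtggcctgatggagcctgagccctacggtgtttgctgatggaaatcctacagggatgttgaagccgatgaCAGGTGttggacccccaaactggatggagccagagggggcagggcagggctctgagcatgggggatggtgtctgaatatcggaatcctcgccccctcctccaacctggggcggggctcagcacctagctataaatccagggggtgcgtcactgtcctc
Tnnt2, chr1:135836084-135836333, plus strand: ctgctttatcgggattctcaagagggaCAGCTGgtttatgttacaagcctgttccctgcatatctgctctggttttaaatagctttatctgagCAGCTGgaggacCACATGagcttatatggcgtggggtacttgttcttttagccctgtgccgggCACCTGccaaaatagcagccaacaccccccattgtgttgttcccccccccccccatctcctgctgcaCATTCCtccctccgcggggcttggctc
The Tnnt2 window shown held 4 E-boxes and 1 MCAT element, and the Tnnt1 window 1 E-box. The window of the other Tnnt2 start held 1 E-box and 0 MCAT elements. Tnnc1, whose level did not differ with daidzein beyond the spread, held 2 E-boxes and 1 MCAT element, and Mamstr, which was lower, held 0 of either. No window of a member held the MEF2 or CArG letters, which says only that these letters are not in these windows.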

How the data were processed

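RNA of 3T3-L1 adipocytes was hybridized to 4 Agilent one-colour arrays. Feature Extraction wrote each spot's intensity, background subtracted and detrended within the array, and its flags for well above background, saturation, outliers and control type, per the file headers; the headers give version 10.7.1.1 and the submitters' processing notes 9.5.1.1. A series-wide table deposited by the authors gives intensity with a median of 18.3 in every column and served as an alternative.

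Control and outlier spots were left out (173 outliers on daidzein+PT, 131 on daidzein, 156 on PT and 106 on PBS). Each array's log2 signal had its 75th percentile subtracted, and scaled intensity is that value on the linear scale times the geometric mean of the percentiles (389). Spots of a probe were averaged, a probe counted as well above background where at least 0.5 of its spots were, and a gene took its probe with the highest mean signal. Names came from the files, with 27229 probes matched by accession to a GRCm38 table and 2837 renamed.

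No test was made, as a group is 1 array. The members and gene lists were chosen with earlier results of these data known. Named were all members, up to 4 genes of each pathway list with the largest mean daidzein difference, the 5 nearest patterns of Tnni2 and of Mamstr (1 of them is not reported here), and markers well above background on any array. Background correction (limma 3.58.1, R 4.3.3), normalization, the filter, the choice of probe and the threshold were varied. The calculation (Python 3.11.15) was tested on simulated data.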

Additional observations from a re-analysis of the deposited data

How the results depend on the processing

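The number of members at least 2-fold lower was 2 for daidzein over PBS, 3 for daidzein+PT over PBS, 0 for daidzein+PT over daidzein and 3 for daidzein+PT over PT. With normexp background correction (offset 50), which pulls dim probes together by its offset, it was 1 in daidzein over PBS, 1 in daidzein+PT over PBS and 1 in daidzein+PT over PT, and that gene was Tnni2, at -1.35, -1.41 and -1.55 (log2). Mamstr was then at -0.50 in daidzein over PBS and -0.43 in daidzein+PT over PT, and Tnnt2 at -0.34 and -0.28. Without the filter on dim probes the count was 5 in daidzein+PT over PBS, 5 in daidzein+PT over PT and 1 in daidzein+PT over daidzein, since probes below background then enter. Of all 35017 genes then counted, 3%, 5.12% and 3.17% were lower in these comparisons. At a 1.5-fold threshold the count of members was 4 in daidzein over PBS. The share of all genes at that threshold was not counted, so this count has no scale. Taking the mean over all probes, Mamstr was at -0.65 and -0.67, because its second probe is below background. Tnnt1, which also has a probe below background, was then at -1.04 in daidzein over PBS, -1.10 in daidzein+PT over PT and 0.20 in PT over PBS. The counts of the daidzein pairs stayed at 2 and 3, but with Tnnt1 in place of Mamstr. Quantile and cyclic loess normalization, the deposited table and scaling by the median each gave 2 in daidzein+PT over PT, where Tnnt2 lies at the line. Scaling by the median also gave 3 in daidzein over PBS and 4 in daidzein+PT over PBS, while the other 3 of these settings left the counts of those comparisons at 2 and 3. The mean over probes gave 2 in daidzein+PT over PBS. No member's difference changed sign where it was past 2-fold. Scaling by the median put the median of all genes at -0.27 in PT over PBS, -0.24 in daidzein+PT over PBS and -0.14 in daidzein+PT over daidzein. Over all genes, the numbers lower and higher by 2-fold were 70 and 209 for daidzein over PBS, 12 and 165 for PT over PBS, 103 and 468 for daidzein+PT over PBS, 20 and 200 for daidzein+PT over daidzein, and 160 and 390 for daidzein+PT over PT. In the same order they were 16 and 116, 2 and 41, 37 and 287, 2 and 61, and 42 and 231 with normexp. Without the filter they were 1155 and 1809, 889 and 2210, 1052 and 2682, 1110 and 2080, and 1794 and 2054. Scaling by the median gave 98 and 184, 48 and 99, 239 and 367, 39 and 134, and 144 and 401. In PT over PBS, 29 genes were lower with quantile normalization and with the deposited table, and 22 with the mean over probes. No paired analysis was possible because each group has 1 array.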
